A study of Homo sapiens with 18 samples.

Results

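The 38 genes described here encode parts of the lysosome and of the autophagy machinery, and they were taken from the deposited gene tables by NCBI Gene ID. Of the 38, 37 had rows among the 21662 gene IDs listed over all files, and all 37 passed the filter on low counts; CTSL, which encodes the protease cathepsin L, had no row and was not analysed here. They comprised 17 genes of the lysosomal membrane and lumen, 4 of the proton pump, 2 transcription factors and 14 of autophagy. RNA came from SNT-8, SNK-10 and SNT-16, 3 lines of NK/T cell lymphoma whose genotype label is wild type. Cells of each line received either icaritin, a flavonoid with a prenyl group from Epimedium herbs, or its solvent DMSO, both for 12 h. Each of the 6 groups held 3 libraries, 18 in all. Their labels do not state the icaritin dose, nor that the 3 libraries of a group came from separate cultures, so the p-values rest on a spread among libraries that may be technical. Each line is a single established line, and no other clone or donor was included.

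The lysosome is the acidic compartment in which hydrolases digest proteins, lipids, glycans and glycogen. A vacuolar proton pump, the V-ATPase, acidifies it with the energy of ATP. In autophagy, a membrane sheet grows around cytoplasm, closes into an autophagosome and fuses with lysosomes. The kinase ULK1 and a phosphatidylinositol 3-kinase complex start this process, and 2 conjugation reactions attach ATG12 to ATG5 and proteins of the ATG8 family to lipid on the membrane. Many lysosomal genes carry in their promoters the CLEAR element, an E-box bound by the MiT/TFE factors TFEB and TFE3. The mTORC1 kinase phosphorylates these factors at the lysosome and thereby keeps them out of the nucleus.

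Library totals lay between 9526431 and 10100453 expected counts, and the lowest group mean of a member was 5.09 CPM (a gene's count scaled to a common library size). The replicate pairs differed by a chi-square of 1.37 to 8.19 per gene, above sampling noise. The highest values, 5.96 and 8.19, involved SNT-8 icaritin replicate 2, which stood apart from the other 2 libraries of its group. To a lesser degree SNK-10 icaritin replicate 3 did too, with 3.41 and 4.13 against 1.53 between the other 2. All 14 NK and T cell markers had rows in the files and none was under 1 CPM throughout, whereas CD14, CD163, VSIG4 and C1QA of macrophages, MS4A1, CD79A, CD79B and JCHAIN of B cells, and DCN and LUM of fibroblasts stayed under 1 CPM in all 18 libraries. Other genes of these lists were present and moved with the treatment: PAX5 of the B cell list fell in SNT-8 and SNT-16, and of the fibroblast list COL1A1 rose and PDGFRA fell in each line, with list sums of 1.64 to 15.89 CPM for B cells and 15.59 to 28.23 CPM for fibroblasts. The sum of the NK and T cell markers was lower with icaritin in each line, at 4240 to 4483 CPM with DMSO and 3734 to 4074 with icaritin in SNT-8, 3071 to 3171 and 2754 to 2865 in SNK-10, and 4672 to 4801 and 4184 to 4386 in SNT-16. That of the 10 macrophage markers with rows, which include the lysosomal protein gene CD68, was 129.5 to 136.2 CPM with DMSO and 98.21 to 128.5 with icaritin in SNT-8, 68.42 to 78.54 and 62.05 to 78.96 in SNK-10, and 119.5 to 125.6 and 105.4 to 112.8 in SNT-16. The part of these markers in the members' changes was not tested. Another measure moved with the treatment, and whether it is technical or a response of the cells was not tested. The mitochondrial ribosomal RNA gene RNR2 took 1.19% to 1.33% of counts with DMSO and 2.12% to 2.78% with icaritin in SNT-8, 1.501% to 1.55% and 4.595% to 5.12% in SNK-10, and 0.830% to 0.889% and 1.65% to 1.77% in SNT-16. With mitochondrial ribosomal RNA removed, the members called higher numbered 20, 26 and 22 in the 3 lines, against 20, 26 and 23 with it.

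Icaritin raised the RNA of most of these genes, by modest amounts. The members were chosen with earlier results of these data known, so their counts beside those of all genes are a description. Changes are given as log2 fold changes of icaritin over DMSO ± SE, n = 3 libraries per group, from edgeR's quasi-likelihood test, with p adjusted over all 14396 tested genes and a threshold of 0.05. In SNT-8, 20 of the 37 members were higher and 2 lower, while 24% of all tested genes were higher and 25% lower. In SNK-10, 26 were higher and 3 lower, against 24.4% and 24% of all genes. In SNT-16, 23 were higher and 0 lower, against 21.2% and 20.8%; edgeR gave 0 members lower there also at an unadjusted p under 0.05, and DESeq2 and limma gave 0 as well. The summed CPM of the members rose without overlap, from 2417 to 2501 in SNT-8 DMSO libraries to 2913 to 2965 with icaritin, from 2275 to 2345 to 2906 to 3006 in SNK-10, and from 2423 to 2477 to 3061 to 3138 in SNT-16.

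The same 20 members were higher in each of the 3 lines and 0 were lower in each, where 13% and 14.3% of all tested genes were called in these ways. On the mean response of the lines, 26 members were higher and 1, LIPA, was lower, against 31.7% and 30% of all genes. The median log2 fold change of the members was 0.20 in SNT-8, 0.33 in SNK-10 and 0.29 in SNT-16, beside 0.02, 0.01 and 0.02 for all tested genes. A change of at least 1.5-fold upwards was reached by 2 members in SNT-8, 7 in SNK-10 and 3 in SNT-16. The share of all tested genes with such a change was not counted, so these numbers only describe the size of the changes. The libraries of the 2 treatments did not overlap for 20, 30 and 27 members in SNT-8, SNK-10 and SNT-16, against 54.1%, 55.2% and 52.7% of all tested genes in either direction, so the SNT-8 count was at the background. Without SNT-8 icaritin replicate 2, 19 members were higher in SNT-8 and 1 lower. In bulk RNA, a change in the number of cells with a transcript and a change in its amount per cell cannot be told apart.

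**Figure D1:**
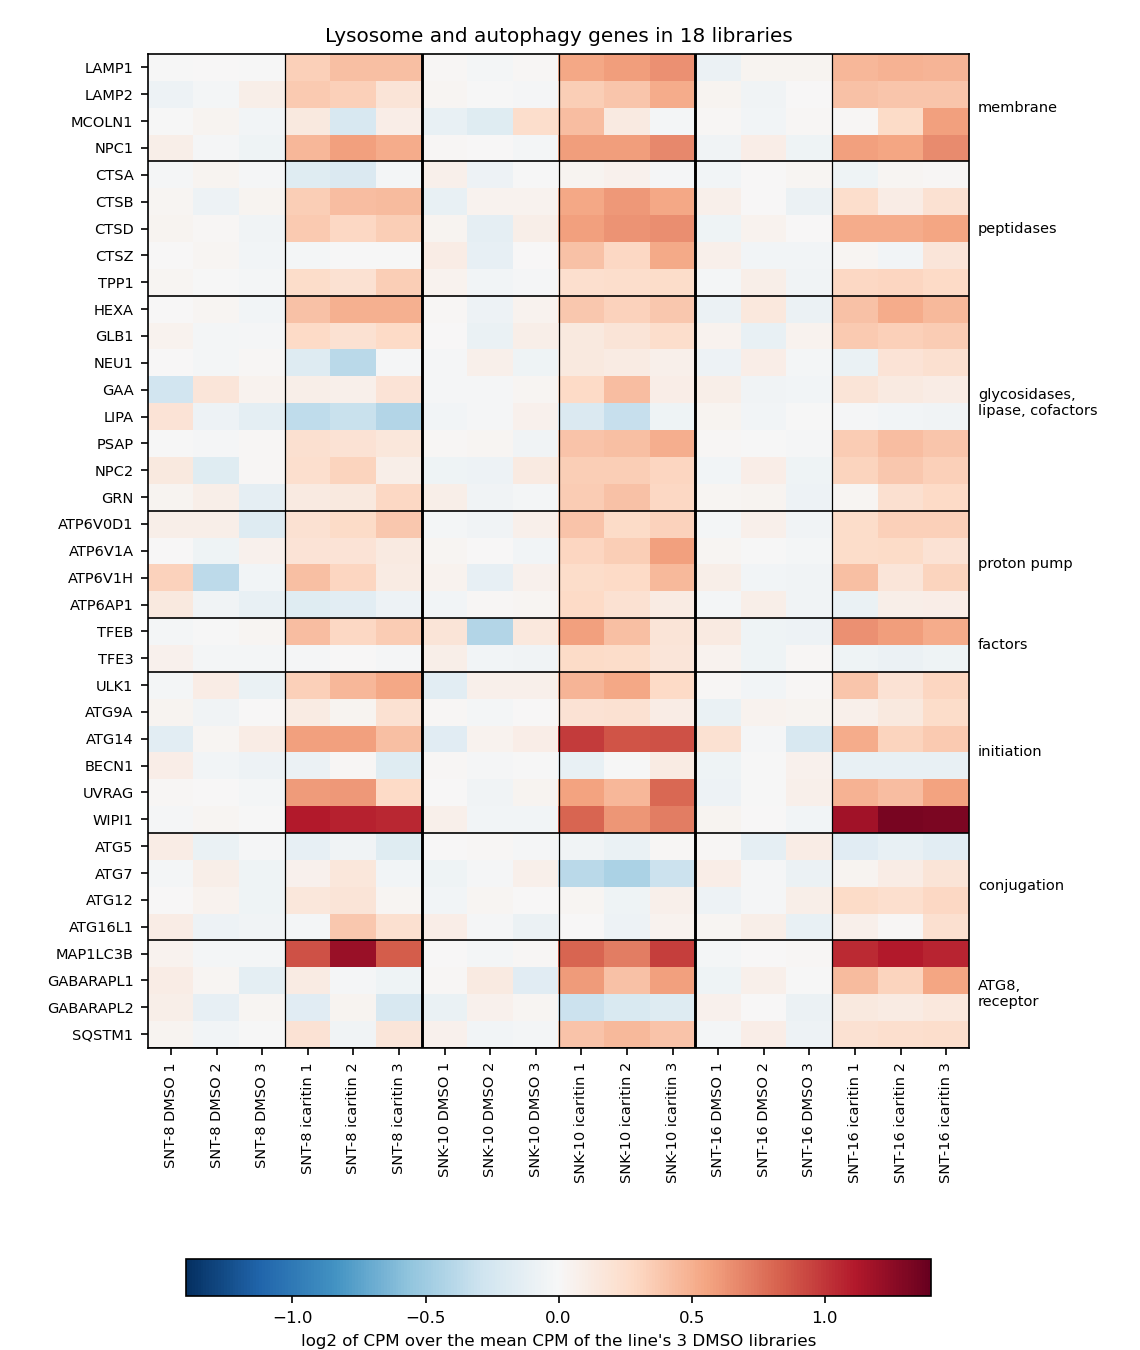
Heatmap of the 37 members (horizontal bands, grouped by role) in the 18 libraries (vertical bands, grouped by line and treatment); colour gives log2 of a library's CPM over the mean CPM of the 3 DMSO libraries of its line. WIPI1 and MAP1LC3B have the strongest colour with icaritin in both SNT lines and ATG14 in SNK-10. The conjugation genes ATG5, ATG7, ATG12 and ATG16L1 are paler. Their lowest values are those of ATG7 in SNK-10 and their highest is 0.38, of ATG16L1 in SNT-8 icaritin replicate 2. Values run from -0.44 to 1.33.

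Among the 4 lysosomal membrane genes, LAMP1, LAMP2 and NPC1 rose in each line and MCOLN1 passed the threshold in none. LAMP1 encodes an abundant glycoprotein of the lysosomal membrane. In SNT-8, LAMP1 had 271, 273 and 272 CPM in the DMSO libraries and 342, 365 and 363 CPM in the icaritin libraries. In SNK-10, it had 165, 160.4 and 165 CPM in the DMSO libraries and 238, 246 and 256 CPM in the icaritin libraries. SNT-16 had 262, 284 and 285 CPM in the DMSO libraries and 382, 388 and 386 CPM in the icaritin libraries. The groups did not overlap in any line, and the changes were 0.39 ± 0.044, 0.59 ± 0.046 and 0.47 ± 0.044 (adjusted p = 9.61e-10, 8.28e-14 and 1.01e-11). SNK-10 started lowest and stayed lowest, with its icaritin libraries below the DMSO libraries of both other lines.

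NPC1 encodes the transporter that exports cholesterol from lysosomes. In SNT-8, NPC1 had 56.4, 52.8 and 51.1 CPM in the DMSO libraries and 73.9, 79.8 and 76.4 CPM in the icaritin libraries. Its values in SNK-10 were 41.6, 41.1 and 40.2 CPM in the DMSO libraries and 61.5, 61.3 and 65.5 CPM in the icaritin libraries. SNT-16 had 52.2, 57.5 and 51.8 CPM in the DMSO libraries and 80.2, 79.0 and 85.1 CPM in the icaritin libraries. All icaritin values lay above all DMSO values of their line, with changes of 0.52 ± 0.060, 0.61 ± 0.065 and 0.60 ± 0.059 (adjusted p = 1.84e-09, 2.3e-10 and 8.46e-11). The annotation places RMC1 over part of NPC1, with log2 fold changes of 0.06, 0.22 and 0.15. Overlap here means that the annotated spans of the genes, introns included, share bases. How reads were assigned by strand is not given in the sources used here. Any reads from stretches shared by NPC1 and RMC1, or by the other overlapping pairs named here, therefore cannot be told apart. How many such reads there were was not tested. LAMP2, the partner glycoprotein of LAMP1, changed by 0.29 ± 0.052, 0.42 ± 0.053 and 0.39 ± 0.053. For MCOLN1, a calcium channel of the lysosomal membrane, the values were 0.01 ± 0.14, 0.19 ± 0.14 and 0.30 ± 0.14 (adjusted p = 0.961, 0.27 and 0.0738). The SNT-16 value passed the threshold without icaritin replicate 1 (adjusted p = 0.0177).

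Of the 5 lysosomal peptidases with rows, CTSB, CTSD and TPP1 rose in each line, CTSZ rose in SNK-10, and CTSA was lower in SNT-8. CTSD encodes cathepsin D, the main aspartic protease of lysosomes. In SNT-8, CTSD had 152, 151 and 144 CPM in the DMSO libraries and 193, 182 and 189 CPM in the icaritin libraries. In SNK-10, CTSD had 121, 109 and 125 CPM in the DMSO libraries and 176, 183 and 187 CPM in the icaritin libraries. SNT-16 had 139, 149.6 and 145 CPM in the DMSO libraries and 207, 206 and 212 CPM in the icaritin libraries. No groups overlapped, and the changes were 0.34 ± 0.049, 0.62 ± 0.051 and 0.53 ± 0.049 (adjusted p = 3.25e-07, 3.68e-13 and 1.4e-11). The response differed between the lines (adjusted p = 0.0119), and the SNK-10 response exceeded that of SNT-8 by 0.28 ± 0.071 (adjusted p = 0.00591).

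CTSB encodes cathepsin B, a cysteine protease. Its SNT-8 values were 50.9, 47.6 and 51.1 CPM in the DMSO libraries and 63.4, 67.4 and 67.7 CPM in the icaritin libraries. In SNK-10, CTSB had 43.4, 48.1 and 48.3 CPM in the DMSO libraries and 67.9, 71.2 and 67.6 CPM in the icaritin libraries. SNT-16 had 53.8, 51.2 and 48.5 CPM in the DMSO libraries and 60.8, 55.0 and 59.1 CPM in the icaritin libraries. The rise was smallest in SNT-16, where the lowest icaritin library stood just above the highest DMSO library. CTSB changed by 0.41 ± 0.063, 0.56 ± 0.064 and 0.19 ± 0.063 (adjusted p = 7.55e-07, 1.31e-09 and 0.0145), and the response of SNK-10 was 0.38 ± 0.090 larger than that of SNT-16 (adjusted p = 0.00342; 0.00925 for the 3 lines together). The SNT-16 call was lost without DMSO replicate 3 (adjusted p = 0.0957), icaritin replicate 1 (0.0792) or icaritin replicate 3 (0.0513).

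TPP1, a tripeptidyl peptidase, changed by 0.28 ± 0.047, 0.24 ± 0.045 and 0.29 ± 0.047, nearly the same amount in each line. CTSZ, a cysteine carboxypeptidase, changed by 0.41 ± 0.087 in SNK-10 (adjusted p = 0.000147), with -0.01 ± 0.077 in SNT-8 and 0.05 ± 0.079 in SNT-16 (adjusted p = 0.905 and 0.622). This response differed between the lines (adjusted p = 0.0204), but not without SNK-10 DMSO replicate 2 (adjusted p = 0.103) or SNK-10 icaritin replicate 3 (0.0809). CTSA, a carboxypeptidase that also protects the glycosidases NEU1 and GLB1 in a complex, fell by 0.13 in SNT-8 (SE 0.055, adjusted p = 0.0482). That call was lost without DMSO replicate 1 (adjusted p = 0.0697), DMSO replicate 2 (0.151), DMSO replicate 3 (0.0661), icaritin replicate 1 (0.152) or icaritin replicate 2 (0.183). PLTP, which overlaps CTSA in the annotation, had a log2 fold change of -0.23 in SNT-8.

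The 8 glycosidases, lipase and luminal cofactors were split. HEXA, GLB1, PSAP, NPC2 and GRN rose in each line, GAA passed only on the mean of the lines, NEU1 passed in no line by edgeR, and LIPA fell in SNT-8 and SNK-10. PSAP encodes prosaposin, the precursor of the saposins that present sphingolipids to their hydrolases. In SNT-8, PSAP had 183, 181 and 184 CPM in the DMSO libraries and 214, 211 and 204 CPM in the icaritin libraries. In SNK-10 the values were 188, 189 and 179 CPM in the DMSO libraries and 244, 248 and 263 CPM in the icaritin libraries. SNT-16 showed 191, 188 and 187 CPM in the DMSO libraries and 242, 255 and 246 CPM in the icaritin libraries. Treated and control libraries did not overlap in any line. PSAP changed by 0.20 ± 0.045, 0.44 ± 0.045 and 0.39 ± 0.044 (adjusted p = 0.000271, 8.1e-11 and 1.68e-09), and these responses differed (adjusted p = 0.0127).

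HEXA encodes the alpha subunit of beta-hexosaminidase, which trims gangliosides. In SNT-8, HEXA had 54.7, 55.9 and 53.5 CPM in the DMSO libraries and 72.7, 77.2 and 77.1 CPM in the icaritin libraries. In SNK-10 there were 53.0, 49.8 and 53.9 CPM in the DMSO libraries and 67.9, 65.3 and 68.0 CPM in the icaritin libraries. SNT-16 had 60.0, 70.2 and 60.2 CPM in the DMSO libraries and 84.1, 91.3 and 87.3 CPM in the icaritin libraries. The groups were again separate, with changes of 0.47 ± 0.062, 0.36 ± 0.064 and 0.46 ± 0.060 (adjusted p = 4.03e-08, 1e-05 and 3.23e-08). No difference between the lines was called for HEXA (adjusted p = 0.622).

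GLB1, the lysosomal beta-galactosidase, changed by 0.26 ± 0.063, 0.19 ± 0.065 and 0.35 ± 0.061. NPC2, which hands cholesterol to NPC1, changed by 0.21 ± 0.074, 0.33 ± 0.082 and 0.34 ± 0.076. GRN, which encodes progranulin, changed by 0.19 ± 0.074, 0.35 ± 0.070 and 0.18 ± 0.071. Leaving out 1 library ended the call for the smaller of these changes. The SNK-10 call of GLB1 was lost without DMSO replicate 2 (adjusted p = 0.118) or icaritin replicate 3 (0.07), and the SNT-8 call of NPC2 without DMSO replicate 2 (adjusted p = 0.186), icaritin replicate 1 (0.0503) or icaritin replicate 2 (0.0935). GRN lost its SNT-8 call without DMSO replicate 3 (adjusted p = 0.222) or icaritin replicate 3 (0.188) and its SNT-16 call without DMSO replicate 1 (adjusted p = 0.0593), DMSO replicate 3 (0.166), icaritin replicate 2 (0.123) or icaritin replicate 3 (0.235). TMPPE, which overlaps GLB1 in the annotation, had 3.06 CPM on the mean of all libraries.

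LIPA encodes lysosomal acid lipase, which hydrolyses cholesteryl esters and triglycerides, and it was the one member lower on the mean response, at -0.20 ± 0.041 (adjusted p = 7.97e-05). It fell in SNT-8 (-0.35 ± 0.072, adjusted p = 7.3e-05) and SNK-10 (-0.19 ± 0.072, adjusted p = 0.025), with -0.04 ± 0.070 in SNT-16 (adjusted p = 0.71). In SNK-10 the fall of LIPA was lost without DMSO replicate 3 (adjusted p = 0.105), icaritin replicate 1 (0.0674) or icaritin replicate 2 (0.188). The annotation places genes of the interferon-induced IFIT family over LIPA, and of these IFIT2 and IFIT3 had positive log2 fold changes in each line and IFIT1 and IFIT5 negative ones. NEU1, a sialidase, had values of -0.18 ± 0.079, 0.10 ± 0.087 and 0.12 ± 0.077 (adjusted p = 0.0506, 0.35 and 0.243). NEU1 passed the threshold as lower in SNT-8 with DESeq2's size factors (adjusted p = 0.0441), without the low-count filter (0.0311), without mitochondrial ribosomal RNA (0.0451) and without icaritin replicate 3 (adjusted p = 0.00552), and as higher in SNT-16 without icaritin replicate 1 (adjusted p = 0.0326).

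GAA, which encodes the acid alpha-glucosidase that degrades glycogen, had the lowest FPKM of the lysosomal members in SNK-10. In SNT-8, GAA had 19.2, 26.0 and 23.9 CPM in the DMSO libraries and 24.4, 24.3 and 26.2 CPM in the icaritin libraries. In SNK-10 it reached 9.16, 9.13 and 9.41 CPM in the DMSO libraries and 11.2, 12.5 and 9.87 CPM in the icaritin libraries. SNT-16 had 25.1, 22.9 and 23.2 CPM in the DMSO libraries and 26.8, 26.0 and 25.6 CPM in the icaritin libraries. Its groups overlapped in SNT-8 and were separate in SNK-10 and SNT-16. No line passed the threshold (adjusted p = 0.328, 0.0755 and 0.24), while the mean response did at 0.18 ± 0.061 (adjusted p = 0.0122). SNK-10 passed it without icaritin replicate 3 (adjusted p = 0.0336), and limma on log2(FPKM + 1) gave adjusted p = 0.0542 for the mean.

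Of the 4 proton pump members, ATP6V0D1, ATP6V1A and ATP6V1H rose in each line and ATP6AP1 in SNK-10. ATP6V1A encodes the catalytic subunit of the cytosolic V1 sector. In SNT-8, ATP6V1A had 62.6, 60.1 and 65.1 CPM in the DMSO libraries and 71.5, 71.6 and 68.4 CPM in the icaritin libraries. In SNK-10, ATP6V1A had 59.6, 58.7 and 56.7 CPM in the DMSO libraries and 71.8, 73.9 and 86.6 CPM in the icaritin libraries. SNT-16 had 64.2, 62.7 and 61.6 CPM in the DMSO libraries and 74.8, 75.5 and 72.1 CPM in the icaritin libraries. The groups did not overlap, and SNK-10 had the 3 lowest DMSO libraries and, in icaritin replicate 3, the highest of all 18. The changes were 0.17 ± 0.062, 0.41 ± 0.063 and 0.24 ± 0.061 (adjusted p = 0.0204, 7.75e-07 and 0.0015), and the SNT-8 call was lost without DMSO replicate 2 (adjusted p = 0.0987) or icaritin replicate 1 (0.0556).

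ATP6V0D1 encodes the subunit that joins the membrane sector V0 to the central stalk. In SNT-8, ATP6V0D1 had 39.8, 39.6 and 33.1 CPM in the DMSO libraries and 43.3, 45.0 and 48.7 CPM in the icaritin libraries. In SNK-10 the libraries held 39.6, 39.0 and 42.6 CPM in the DMSO libraries and 53.2, 48.8 and 50.6 CPM in the icaritin libraries. SNT-16 had 38.6, 41.4 and 38.2 CPM in the DMSO libraries and 47.3, 49.6 and 49.9 CPM in the icaritin libraries. It changed by nearly the same amount in each line, without overlap: 0.28 ± 0.073, 0.33 ± 0.072 and 0.31 ± 0.071 (adjusted p = 0.00115, 0.000181 and 0.000423).

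ATP6V1H, a regulatory subunit of V1, changed by 0.28 ± 0.11, 0.33 ± 0.12 and 0.30 ± 0.11, and each of its 3 calls ended without certain libraries. They were lost in SNT-8 without DMSO replicate 2 (adjusted p = 0.332), DMSO replicate 3 (0.103), icaritin replicate 1 (0.172) or icaritin replicate 2 (0.0879), in SNK-10 without DMSO replicate 2 (adjusted p = 0.0992) or icaritin replicate 3 (0.103), and in SNT-16 without DMSO replicate 2 (adjusted p = 0.0889), DMSO replicate 3 (0.0947), icaritin replicate 1 (0.143) or icaritin replicate 3 (0.0706). ATP6AP1, an accessory subunit used in pump assembly, changed by 0.20 ± 0.065 in SNK-10 (adjusted p = 0.00796) and had -0.13 ± 0.067 in SNT-8 and 0.03 ± 0.065 in SNT-16. The SNK-10 call was lost without icaritin replicate 1 (adjusted p = 0.0574), and the SNT-8 value passed the threshold as lower without DMSO replicate 3 (adjusted p = 0.0496). Its responses differed between lines at adjusted p = 0.0327, a call lost without any 1 of 7 of the 18 libraries (adjusted p up to 0.121).

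**Figure D2:**
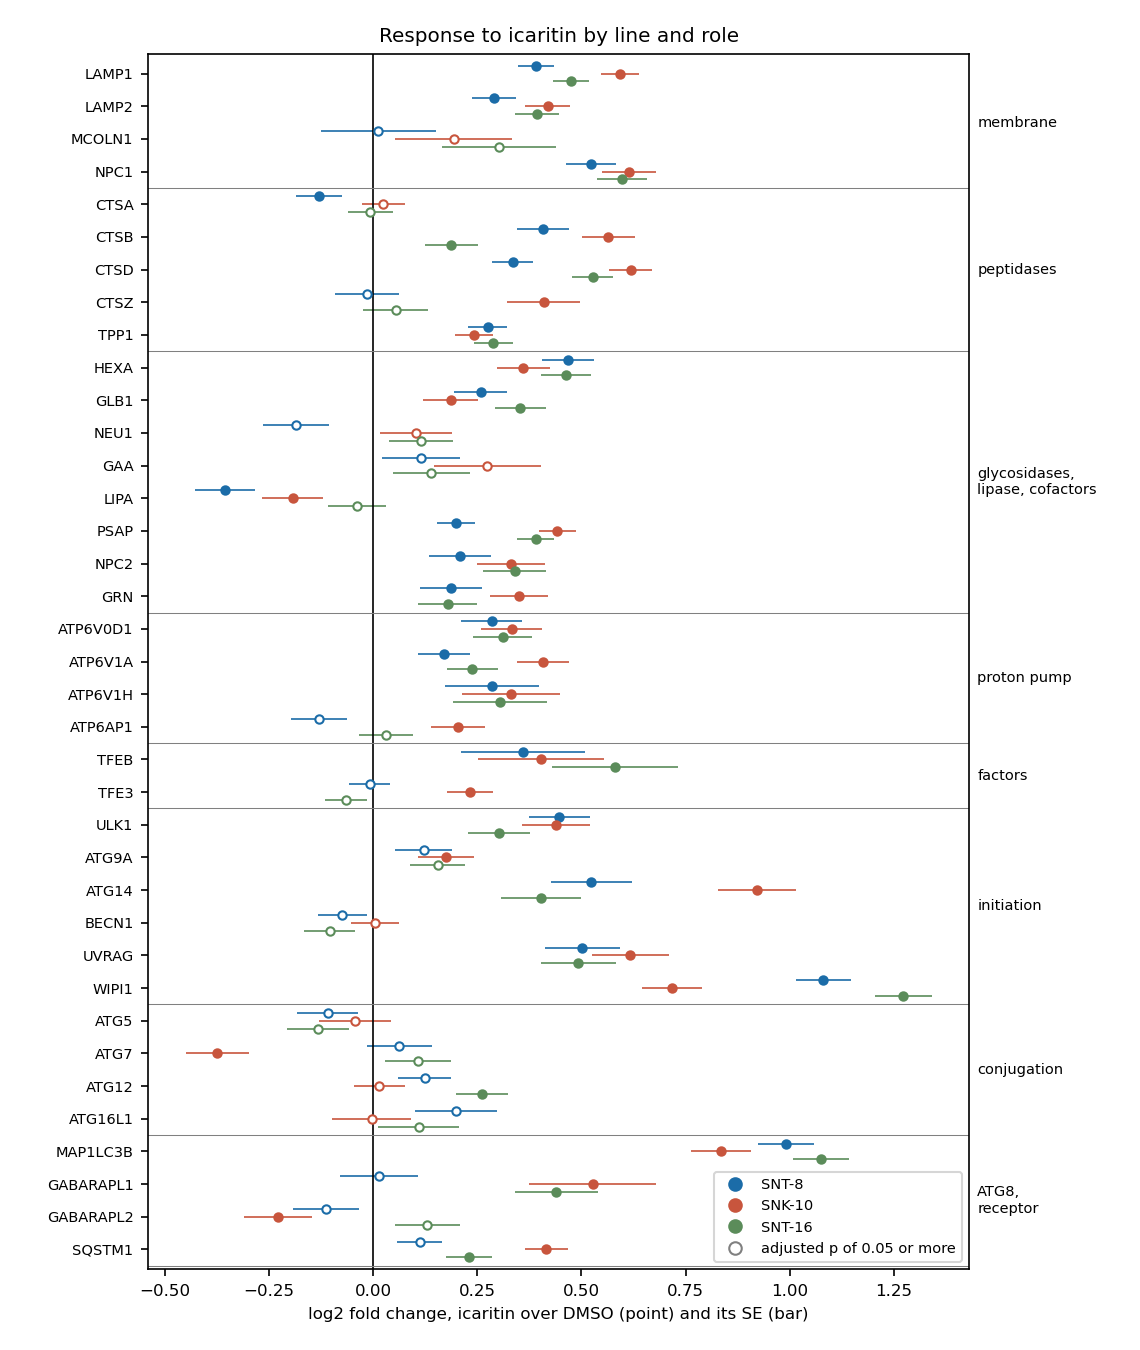
Log2 fold change of icaritin over DMSO (x axis; point, with SE as bar) for the 37 members by role (y axis) in SNT-8, SNK-10 and SNT-16; filled points passed the threshold. The lysosomal members have medians of 0.21, 0.35 and 0.30, WIPI1 and MAP1LC3B lie between 0.72 and 1.27, and ATG7 in SNK-10 and LIPA in SNT-8 are the lowest points.

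The factor gene TFEB rose in each line, and TFE3 rose in SNK-10. TFEB was the least expressed member per transcript length in SNT-8 and SNT-16. In SNT-8, TFEB had 6.48, 6.58 and 6.71 CPM in the DMSO libraries and 8.88, 8.03 and 8.46 CPM in the icaritin libraries. In SNK-10, TFEB had 7.58, 5.04 and 7.40 CPM in the DMSO libraries and 9.96, 8.93 and 7.56 CPM in the icaritin libraries. SNT-16 had 6.32, 5.55 and 5.54 CPM in the DMSO libraries and 9.06, 8.69 and 8.29 CPM in the icaritin libraries. The groups overlapped in SNK-10 and were separate in SNT-8 and SNT-16. The changes were 0.36 ± 0.15, 0.40 ± 0.15 and 0.58 ± 0.15 (adjusted p = 0.0437, 0.0253 and 0.00174). In SNT-8 the call of TFEB was lost without DMSO replicate 1 (adjusted p = 0.0968), DMSO replicate 2 (0.0867), DMSO replicate 3 (0.0759), icaritin replicate 1 (0.116) or icaritin replicate 3 (0.0773), and in SNK-10 without DMSO replicate 2 (adjusted p = 0.235), icaritin replicate 1 (0.146) or icaritin replicate 2 (0.0563), whereas in SNT-16 it held without any 1 library.

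TFE3 had the higher FPKM of the 2 factors. In SNT-8, TFE3 had 121, 114 and 114 CPM in the DMSO libraries and 115, 116 and 115 CPM in the icaritin libraries. In SNK-10, TFE3 had 79.4, 72.8 and 72.2 CPM in the DMSO libraries and 89.9, 89.6 and 84.2 CPM in the icaritin libraries. SNT-16 had 119, 111 and 116 CPM in the DMSO libraries and 111, 109 and 110.4 CPM in the icaritin libraries. The groups were separate in SNK-10 and overlapped in both SNT lines. SNK-10 changed by 0.23 ± 0.055 (adjusted p = 0.00048), with -0.01 ± 0.050 in SNT-8 and -0.07 ± 0.051 in SNT-16 (adjusted p = 0.916 and 0.324). The response of SNK-10 differed from SNT-8 by 0.24 ± 0.074 and from SNT-16 by 0.30 ± 0.074 (adjusted p = 0.0281 and 0.00522). RNA levels do not report the nuclear share of either factor.

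Promoter sequences were read to see which members carry the CLEAR element, since members of several roles rose together. RefSeq promoter windows of GRCh38.p14, from 250 bases before to 50 after a start, were found for 31 of the 38 members. The CLEAR core TCACGTGA, which is its own reverse complement, was in the windows of 5 of the 31 (16.1%), against 321 of 27305 genes in the table (1.18%). The 5 were LAMP1, MCOLN1, CTSA, GAA and ATP6V0D1, and 0 of the 13 autophagy members with windows held the core. The element is known from lysosomal genes, so its larger share among members was likely beforehand and is given as a description. The shorter E-box CACGTG, which lies within each CLEAR core, was in 8 of the 31 (25.8%, against 8.78% of all genes), adding CTSD, NEU1 and ATG14. Searched on both strands, the ATF4 core TGATGNAA was in 0 of the 31 (4.46% of all genes), the NRF2 core TGACNNNGC in 10 (32.3%, against 16.1%), and the FOXO element GTAAACA in 1, CTSL (3.23%, against 4.19%). The shares of these motifs are set beside all genes in the table, whether expressed here or not, and are also a description. A match is a string in a window and was not tested for binding.

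The 90 bases before the start are shown, read 5′ to 3′, for the 5 members with a CLEAR core, which is in capitals, and for MAP1LC3B and WIPI1, the members with the largest mean responses, whose windows held no E-box; that of MAP1LC3B held an NRF2 core. Coordinates are those of GRCh38.p14.
LAMP1, chr13:113297149-113297238 (plus strand): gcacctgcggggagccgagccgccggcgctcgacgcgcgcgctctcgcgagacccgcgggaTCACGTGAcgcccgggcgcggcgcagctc
ATP6V0D1, chr16:67481158-67481247 (minus strand): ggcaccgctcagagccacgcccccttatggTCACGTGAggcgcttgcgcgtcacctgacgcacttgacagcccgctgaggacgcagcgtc
GAA, chr17:80101491-80101580 (plus strand): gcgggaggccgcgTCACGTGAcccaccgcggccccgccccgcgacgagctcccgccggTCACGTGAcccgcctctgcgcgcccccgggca
MCOLN1, chr19:7522534-7522623 (plus strand): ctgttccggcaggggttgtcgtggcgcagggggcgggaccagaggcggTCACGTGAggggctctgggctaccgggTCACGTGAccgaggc
CTSA, chr20:45891245-45891334 (plus strand): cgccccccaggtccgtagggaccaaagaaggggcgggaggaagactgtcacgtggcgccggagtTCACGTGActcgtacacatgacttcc
MAP1LC3B, chr16:87392246-87392335 (plus strand): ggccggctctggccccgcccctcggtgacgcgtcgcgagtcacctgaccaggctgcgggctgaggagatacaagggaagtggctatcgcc
WIPI1, chr17:68457497-68457586 (minus strand): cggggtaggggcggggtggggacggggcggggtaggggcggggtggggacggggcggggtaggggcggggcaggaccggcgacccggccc
The core began 29 bases before the start in LAMP1, 60 in ATP6V0D1, 77 and 32 in GAA, 42 and 15 in MCOLN1, and 26 in CTSA. LAMP1 had another core that began 2 bases before the start and ran across it. Of these 5 genes, LAMP1 and ATP6V0D1 rose in each line, GAA passed on the mean alone, MCOLN1 passed in no line, and CTSA was lower in SNT-8. The CTSA call was lost without any 1 of 5 of the 6 SNT-8 libraries. MCOLN1 passed as higher on the mean without any 1 of 4 of the 18 libraries (adjusted p = 0.021 to 0.0291). The part of the core in these responses was not tested.

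Among the 6 initiation and nucleation genes, WIPI1, ATG14, UVRAG and ULK1 rose in each line, ATG9A rose in SNK-10 and BECN1 passed the threshold in none. WIPI1, a protein that binds phosphatidylinositol 3-phosphate on the growing membrane, had the largest mean response of all members. In SNT-8, WIPI1 had 33.2, 34.1 and 33.4 CPM in the DMSO libraries and 72.5, 70.6 and 70.0 CPM in the icaritin libraries. In SNK-10, WIPI1 had 28.6, 26.6 and 26.5 CPM in the DMSO libraries and 48.0, 41.8 and 44.6 CPM in the icaritin libraries. SNT-16 had 27.1, 26.4 and 25.8 CPM in the DMSO libraries and 59.5, 66.2 and 65.8 CPM in the icaritin libraries. The groups lay far apart in each line, and SNT-16 went from the lowest DMSO libraries, level with SNK-10, to values below those of SNT-8 and above those of SNK-10. WIPI1 rose 2.12-fold, 1.65-fold and 2.42-fold, or 1.08 ± 0.066, 0.72 ± 0.073 and 1.27 ± 0.069 in log2 (adjusted p = 6.58e-17, 9.24e-11 and 4.03e-18). The SNK-10 response was the smaller one, differing from that of SNT-8 by -0.36 ± 0.099 and from that of SNT-16 by -0.55 ± 0.10 (adjusted p = 0.0117 and 0.000148). In the annotation WIPI1 overlaps ARSG, which had 12.2 CPM on the mean of all libraries and log2 fold changes of 0.74, 0.55 and 0.66, and PRKAR1A, with 277 CPM and log2 fold changes of 0.23, 0.22 and 0.21.

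ATG14 encodes the subunit that directs the phosphatidylinositol 3-kinase complex to the site of autophagosome formation. In SNT-8, ATG14 had 17.3, 19.5 and 20.6 CPM in the DMSO libraries and 28.5, 28.5 and 25.7 CPM in the icaritin libraries. In SNK-10, ATG14 had 18.2, 21.0 and 21.6 CPM in the DMSO libraries and 40.0, 37.4 and 37.7 CPM in the icaritin libraries. SNT-16 had 23.8, 20.3 and 17.5 CPM in the DMSO libraries and 29.3, 25.5 and 26.6 CPM in the icaritin libraries. The lines had like DMSO values and the icaritin libraries of SNK-10 lay above all others. The changes were 0.52 ± 0.097, 0.92 ± 0.094 and 0.40 ± 0.096 (adjusted p = 1.98e-05, 1.06e-10 and 0.00068). SNK-10 exceeded SNT-16 by 0.52 ± 0.14 (adjusted p = 0.00754), and the difference among the lines, at adjusted p = 0.0138, was lost without SNK-10 DMSO replicate 1 (adjusted p = 0.0723). FBXO34, which overlaps ATG14 in the annotation, had log2 fold changes of 0.26, 0.17 and 0.21.

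UVRAG, an alternative partner of the same kinase complex, changed by 0.50 ± 0.090, 0.62 ± 0.092 and 0.49 ± 0.091. ULK1, the initiating kinase, changed by 0.45 ± 0.074, 0.44 ± 0.082 and 0.30 ± 0.074. ATG9A, a lipid scramblase of the seed vesicles, changed by 0.17 ± 0.067 in SNK-10 (adjusted p = 0.0285). That call was lost without DMSO replicate 1 (adjusted p = 0.0524), DMSO replicate 2 (0.0879), DMSO replicate 3 (0.0543), icaritin replicate 1 (0.0805) or icaritin replicate 2 (0.0946), while the SNT-16 value of 0.16 ± 0.066 passed without icaritin replicate 1 (adjusted p = 0.0272). BECN1, the scaffold shared by both kinase complexes, had values of -0.07 ± 0.060, 0.01 ± 0.059 and -0.10 ± 0.060 (adjusted p = 0.325, 0.955 and 0.172), and CNTD1, which overlaps BECN1 in the annotation, had -0.09, -0.03 and 0.07.

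**Figure D3:**
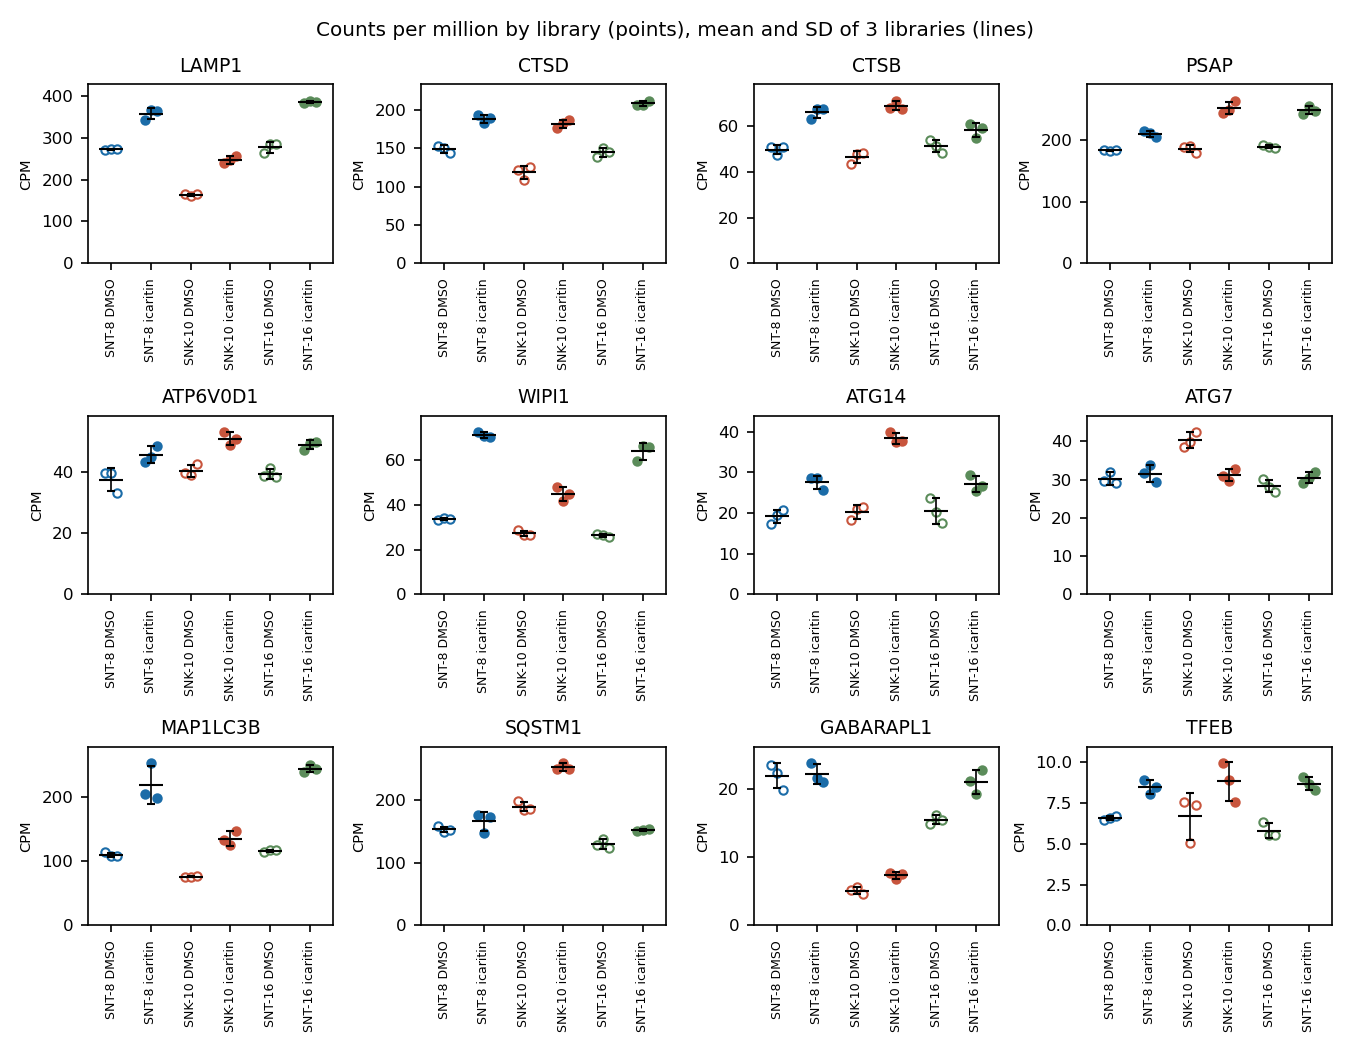
CPM of 12 members (panels, y axes from 0) in the 6 groups of line and treatment (x axis): points are libraries, open for DMSO and filled for icaritin, and lines are the mean and SD of 3 libraries. Filled points lie above open ones in each line for LAMP1, CTSD, CTSB, PSAP, ATP6V0D1, WIPI1, ATG14 and MAP1LC3B, and ATG7 in SNK-10 goes the other way.

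Of the 4 conjugation genes, 0 rose in each line by edgeR. ATG12 rose in SNT-16 and ATG7 fell in SNK-10, and ATG5 and ATG16L1 passed in no line. ATG7 encodes the activating enzyme of both conjugation reactions. In SNT-8, ATG7 had 29.6, 32.1 and 29.0 CPM in the DMSO libraries and 31.6, 33.7 and 29.4 CPM in the icaritin libraries. In SNK-10, ATG7 had 38.6, 39.9 and 42.5 CPM in the DMSO libraries and 31.0, 29.7 and 32.8 CPM in the icaritin libraries. SNT-16 had 30.2, 27.9 and 26.8 CPM in the DMSO libraries and 29.1, 30.4 and 32.0 CPM in the icaritin libraries. The groups were separate in SNK-10, where the DMSO values were the highest of the 3 lines and the icaritin values lay within the range of the others, and they overlapped in SNT-8 and SNT-16. ATG7 changed by -0.37 ± 0.077 in SNK-10 (adjusted p = 8.93e-05), with 0.06 ± 0.078 and 0.11 ± 0.079 in SNT-8 and SNT-16 (adjusted p = 0.534 and 0.293). SNK-10 differed from SNT-8 by -0.44 ± 0.11 and from SNT-16 by -0.48 ± 0.11 (adjusted p = 0.00603 and 0.00221). VGLL4, which overlaps ATG7 in the annotation, had log2 fold changes of 0.59, -0.12 and 0.56 in SNT-8, SNK-10 and SNT-16, with its one negative value also in SNK-10.

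ATG12 encodes the ubiquitin-like protein that is joined to ATG5. In SNT-8, ATG12 had 50.2, 51.9 and 48.0 CPM in the DMSO libraries and 55.9, 56.7 and 51.0 CPM in the icaritin libraries. In SNK-10, ATG12 had 64.5, 67.4 and 66.3 CPM in the DMSO libraries and 67.5, 63.2 and 69.6 CPM in the icaritin libraries. SNT-16 had 47.0, 48.9 and 52.4 CPM in the DMSO libraries and 59.4, 58.1 and 60.3 CPM in the icaritin libraries. Its groups were separate only in SNT-16, with a change of 0.26 ± 0.062 (adjusted p = 0.000666). The values for SNT-8 and SNK-10 were 0.12 ± 0.063 and 0.02 ± 0.060 (adjusted p = 0.102 and 0.862), and edgeR called no difference between lines (adjusted p = 0.118), whereas limma on log2(FPKM + 1) called it (adjusted p = 0.0298). SNT-8 passed without icaritin replicate 3 (adjusted p = 0.0379) and with limma (0.0194).

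ATG5, the partner of ATG12, gave overlapping groups in each line. In SNT-8, ATG5 had 41.0, 36.0 and 37.7 CPM in the DMSO libraries and 35.4, 37.0 and 33.9 CPM in the icaritin libraries. In SNK-10, ATG5 had 23.8, 23.9 and 23.4 CPM in the DMSO libraries and 23.0, 22.1 and 23.9 CPM in the icaritin libraries. SNT-16 had 37.1, 33.6 and 39.5 CPM in the DMSO libraries and 33.0, 34.2 and 33.3 CPM in the icaritin libraries. The log2 values were -0.11 ± 0.073, -0.04 ± 0.086 and -0.13 ± 0.074 (adjusted p = 0.228, 0.719 and 0.158). The mean response of -0.09 ± 0.045 (adjusted p = 0.0667) passed as lower without SNT-16 DMSO replicate 2 (adjusted p = 0.0285), SNT-8 DMSO replicate 2 (0.0434) or SNT-8 icaritin replicate 2 (0.0442). ATG16L1, which places the conjugate on the membrane, had 0.20 ± 0.099, -0.00 ± 0.095 and 0.11 ± 0.096, and its SNT-8 value passed without icaritin replicate 1 (adjusted p = 0.0156).

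Of the ATG8 genes and the cargo receptor, MAP1LC3B rose in each line, SQSTM1 and GABARAPL1 rose in SNK-10 and SNT-16, and GABARAPL2 fell in SNK-10. MAP1LC3B encodes LC3B, the ATG8 protein most used as an autophagosome marker. In SNT-8, MAP1LC3B had 114, 108 and 108 CPM in the DMSO libraries and 204, 254 and 198 CPM in the icaritin libraries. In SNK-10, MAP1LC3B had 76.0, 74.6 and 76.8 CPM in the DMSO libraries and 134, 125 and 148 CPM in the icaritin libraries. SNT-16 had 114, 117 and 117 CPM in the DMSO libraries and 239, 250.3 and 244 CPM in the icaritin libraries. The lowest icaritin library exceeded the highest DMSO library by a wide margin in each line, and SNT-8 icaritin replicate 2 was the highest of all 18. MAP1LC3B rose 1.99-fold, 1.78-fold and 2.11-fold, or 0.99 ± 0.067, 0.84 ± 0.073 and 1.07 ± 0.066 in log2 (adjusted p = 6.01e-13, 1.21e-10 and 1.26e-13). No difference between the lines was called (adjusted p = 0.216), except without SNT-8 icaritin replicate 2 (adjusted p = 0.0192). Its near-identical copy MAP1LC3B2, to which reads could be assigned in error, stayed between 0.525 and 3.50 CPM in all libraries and was called in no line (mean response 0.64 ± 0.23, adjusted p = 0.0194); GABARAPL3 was not analysed here.

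SQSTM1 encodes p62, which binds ubiquitinated cargo and ATG8 proteins. In SNT-8, SQSTM1 had 158, 149.6 and 152 CPM in the DMSO libraries and 176, 148 and 173 CPM in the icaritin libraries. In SNK-10, SQSTM1 had 198, 184 and 185 CPM in the DMSO libraries and 249, 259 and 249 CPM in the icaritin libraries. SNT-16 had 128, 138 and 123 CPM in the DMSO libraries and 149.9, 152 and 154 CPM in the icaritin libraries. The groups overlapped in SNT-8, through icaritin replicate 2, and were separate in SNK-10 and SNT-16. The changes were 0.11 ± 0.054, 0.42 ± 0.052 and 0.23 ± 0.055 (adjusted p = 0.0833, 1.43e-08 and 0.000677), and the SNT-8 value passed the threshold as higher without icaritin replicate 2 (adjusted p = 0.00172). SNK-10 exceeded SNT-8 by 0.30 ± 0.075 (adjusted p = 0.00527). The difference among the 3 lines (adjusted p = 0.0121) was lost without SNK-10 DMSO replicate 2 (adjusted p = 0.0502). MGAT4B, which overlaps SQSTM1 in the annotation, had log2 fold changes of 0.34, 0.54 and 0.43.

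GABARAPL1 encodes an ATG8 protein of the GABARAP branch. In SNT-8, GABARAPL1 had 23.6, 22.4 and 19.9 CPM in the DMSO libraries and 23.9, 21.7 and 21.0 CPM in the icaritin libraries. In SNK-10, GABARAPL1 had 5.16, 5.56 and 4.54 CPM in the DMSO libraries and 7.69, 6.78 and 7.56 CPM in the icaritin libraries. SNT-16 had 14.9, 16.2 and 15.4 CPM in the DMSO libraries and 21.1, 19.2 and 22.8 CPM in the icaritin libraries. The groups overlapped in SNT-8 and were separate in the other lines, and the SNT-16 icaritin libraries came up to the SNT-8 level. The changes were 0.01 ± 0.094, 0.53 ± 0.15 and 0.44 ± 0.099 (adjusted p = 0.92, 0.00376 and 0.000362). The difference between lines, at adjusted p = 0.0303, was lost without any 1 of 7 of the 18 libraries (adjusted p up to 0.103). GABARAPL2, of the same branch, changed by -0.23 ± 0.081 in SNK-10 (adjusted p = 0.0186), with -0.11 ± 0.079 and 0.13 ± 0.078 in SNT-8 and SNT-16. The SNK-10 call was lost without DMSO replicate 2 (adjusted p = 0.0747), DMSO replicate 3 (0.0586) or icaritin replicate 1 (0.0886).

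MAP1LC3B took a larger share of the summed RNA of 6 ATG8 genes with icaritin. On the FPKM scale, which corrects for transcript length, MAP1LC3A, MAP1LC3B, MAP1LC3B2, GABARAP, GABARAPL1 and GABARAPL2 were summed in each library. Any other ATG8 gene was left out of the sum. MAP1LC3B made up 22.3%, 22.4% and 22.9% of this sum with DMSO in SNT-8 and 34.5%, 37.1% and 33.2% with icaritin. In SNK-10 it made up 18.6%, 17.7% and 19.4% with DMSO and 25.3%, 23.9% and 28.3% with icaritin. In SNT-16 the shares were 23.5%, 22.6% and 24.5% with DMSO and 36.9%, 36.0% and 35.5% with icaritin. The shares of the 2 treatments did not overlap in any line. GABARAP held the largest share of the sum in each library, between 45.9% and 60.6%. GABARAPL1 was a minor member, at 1.41% to 1.79% in SNK-10.

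The responses of the lines were compared directly for each member. The test over the 3 lines called 11 of 37 members, where 14.3% of all tested genes were called: CTSB, CTSD, CTSZ, PSAP, ATP6AP1, TFE3, ATG14, WIPI1, ATG7, GABARAPL1 and SQSTM1. Between SNK-10 and SNT-8, 7 members responded more strongly upwards in SNK-10 and 2 less so (10.8% of all genes were called in either direction). Between SNK-10 and SNT-16 the counts were 4 and 3 (12.5% of all genes). Between SNT-8 and SNT-16 they were 0 and 0 by edgeR, with 1 and 6 at an unadjusted p under 0.05, and 0.438% of all genes were called. The pairwise differences called among members therefore all involved SNK-10. LAMP1 passed between SNK-10 and SNT-8 (0.20 ± 0.064, adjusted p = 0.0331) without passing over the 3 lines (adjusted p = 0.0696), where it passed with DESeq2 (0.0236) and without SNT-8 icaritin replicate 2 (adjusted p = 0.0331). The calls of CTSB, PSAP, WIPI1 and ATG7 held in all alternative analyses, including those without any 1 library, and each of the other 7 was lost in at least 1. Without SNT-8 icaritin replicate 2, 15 members were called.

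With DMSO alone, about as large a share of the members as of all genes differed between SNK-10 and the SNT lines, and the members are given as a description. Among DMSO libraries, 9 members were higher and 13 lower in SNK-10 than in SNT-8 (29.9% and 27.8% of all genes), and 7 were higher and 14 lower than in SNT-16 (30.1% and 27.7%). The members lower in SNK-10 than in both were 12: ATG5, CTSD, CTSZ, GAA, GABARAPL1, LAMP1, MAP1LC3B, NEU1, NPC1, NPC2, TFE3 and ULK1 (22.7% of all genes were called in this way). Those higher than in both were 7 (25.6% of all genes): ATG7, ATG12, ATG16L1, BECN1, CTSA, SQSTM1 and TPP1. SNT-16 differed from SNT-8 in 5 members (13.2% of all genes): HEXA and GRN were higher and WIPI1, GABARAPL1 and SQSTM1 lower in SNT-16. The count was 3 without SNT-8 DMSO replicate 3 or SNT-16 DMSO replicate 2.

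The largest DMSO differences among members were those of GABARAPL1 and GAA, given in log2. GABARAPL1 was -2.11 ± 0.12 in SNK-10 relative to SNT-8 and -1.61 ± 0.13 relative to SNT-16 (adjusted p = 3.73e-18 and 7.37e-14). GAA was -1.32 ± 0.11 and -1.36 ± 0.11 (adjusted p = 3.02e-13 and 1.09e-13), and LAMP1 -0.73 ± 0.046 and -0.76 ± 0.046 (adjusted p = 3.01e-17 and 8.7e-18). In the conjugation group, ATG7, ATG12 and ATG16L1 were higher in SNK-10 than in both SNT lines while ATG5 was lower, at -0.69 against SNT-8.

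Levels between genes were compared per transcript length, as FPKM in DMSO libraries (mean ± SD, n = 3). The members had a median of 17.96 FPKM in SNT-8, 15.5 in SNK-10 and 20.6 in SNT-16, beside 7.38, 7.68 and 7.74 for all tested genes. In SNT-8, LAMP1 was highest with 105 ± 0.625 FPKM, above CTSD with 68.6 ± 1.98 and PSAP with 61.8 ± 0.571. In SNT-16 the same order held, with 110.0 ± 5.07, 68.7 ± 2.50 and 65.9 ± 0.779 FPKM, where CTSD and PSAP overlapped within their SD. In SNK-10, SQSTM1 with 63.3 ± 2.18, LAMP1 with 62.4 ± 0.934 and PSAP with 62.1 ± 1.89 FPKM led and did not differ beyond their spread. TFEB was lowest of the members in SNT-8 and SNT-16, with 2.80 ± 0.0577 and 2.57 ± 0.241 FPKM. GABARAPL1, TFEB and GAA were lowest in SNK-10, with 2.65 ± 0.271, 2.79 ± 0.598 and 2.84 ± 0.151 FPKM, again within their spread.

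**Figure D4:**
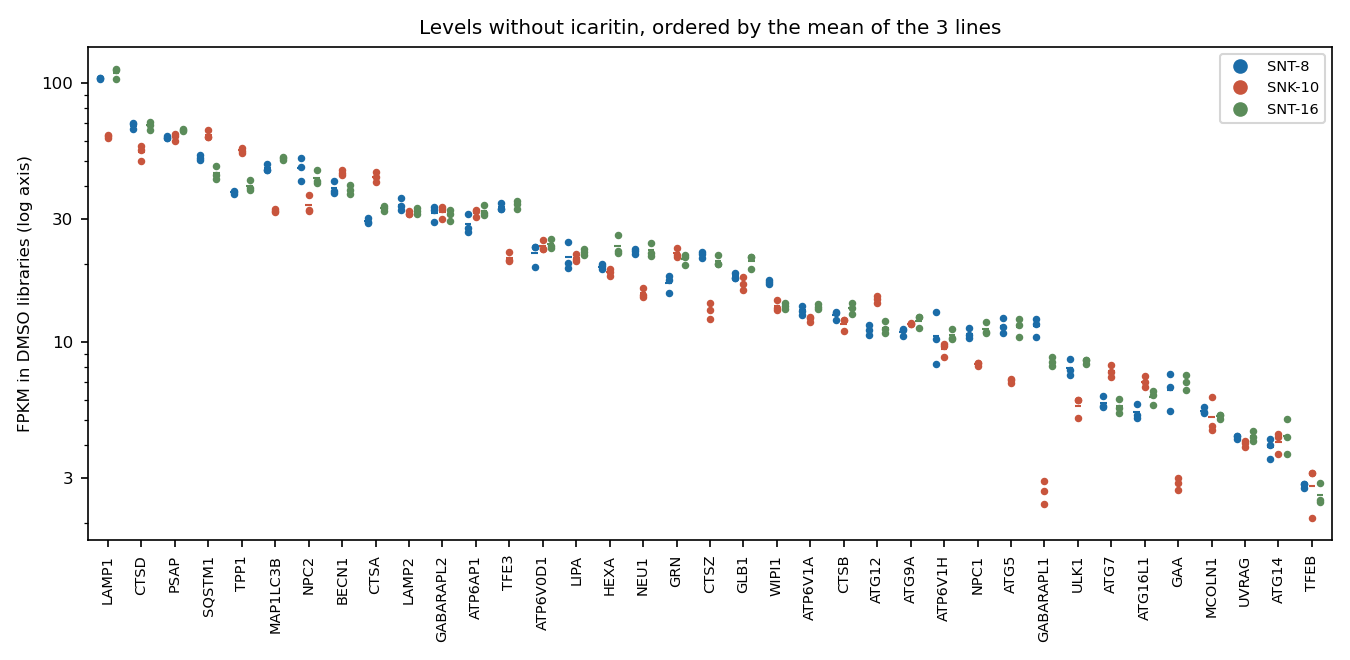
FPKM of the 37 members (x axis, ordered by the mean of the lines) in the DMSO libraries of SNT-8, SNK-10 and SNT-16 (y axis, log scale); points are libraries and short lines their means. GABARAPL1 and GAA in SNK-10 lie far below the SNT lines, LAMP1 and MAP1LC3B less so, and SQSTM1 and TPP1 lie above.

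Other genes of the same pathways were counted to place the members. These lists too were chosen with earlier results of these data known, and their counts are a description. Of 14 further proton pump genes tested, 10 were higher on the mean response and 1 lower, with a median of 0.15; for this and the lists that follow, the shares of all tested genes were 31.7% higher and 30% lower. ATP6V1B2 (V1 subunit B), ATP6AP2 (accessory subunit) and ATP6V1E1 (V1 stalk) led with 0.34 ± 0.030, 0.28 ± 0.040 and 0.25 ± 0.036 (adjusted p = 1.61e-12, 8.61e-08 and 1.8e-07). ATP6V0A1, a subunit of the membrane sector, was lower at -0.37 ± 0.059 (adjusted p = 1.05e-06). In single lines the counts higher and lower were 3 and 1 in SNT-8, 7 and 1 in SNK-10, and 5 and 0 in SNT-16, so the share higher in SNT-8 was not above that of all genes.

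Of 27 further lysosomal enzymes tested, 16 were higher and 5 lower on the mean, against 31.7% and 30% of all genes. MANBA (beta-mannosidase) rose by 0.98 ± 0.052 (adjusted p = 2.53e-19). FUCA1, a fucosidase, had the largest fitted mean response of the named enzymes, 2.67 ± 0.18 (adjusted p = 3.02e-15). In both SNT lines it rested on few counts, with at most 0.495 CPM in the DMSO libraries and 2.75 to 6.72 CPM in the icaritin libraries. In SNK-10, FUCA1 had 19.1, 19.7 and 15.9 CPM in the DMSO libraries and 30.4, 28.6 and 28.8 CPM in the icaritin libraries. The groups did not overlap in any line, and the responses differed between lines (adjusted p = 8.58e-08). CTSC (cathepsin C, which activates granzymes), ACP2 (acid phosphatase) and CTSS (cathepsin S) were lower, at -0.36 ± 0.027, -0.72 ± 0.065 and -0.24 ± 0.036 (adjusted p = 7.4e-15, 1.04e-12 and 1.4e-07).

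Of 17 further lysosomal membrane genes, 9 were higher and 3 lower on the mean (31.7% and 30% of all genes). CLCN7, a chloride and proton exchanger, SCARB2, the receptor that delivers glucocerebrosidase, and CTNS, the cystine exporter, rose by 0.85 ± 0.042, 0.41 ± 0.031 and 0.50 ± 0.048 (adjusted p = 1.58e-20, 1.04e-14 and 7.59e-12). CD63, a tetraspanin, and TMEM192 were lower, at -0.16 ± 0.029 and -0.11 ± 0.043 (adjusted p = 1.57e-05 and 0.025). The call of TMEM192 was lost without SNK-10 DMSO replicate 3 (adjusted p = 0.0631), SNT-16 DMSO replicate 3 (0.0648), SNT-16 icaritin replicate 2 (0.0582) or SNT-8 DMSO replicate 3 (0.0643).

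Of 30 further autophagy genes tested, 17 were higher and 5 lower on the mean, beside 31.7% and 30% of all genes. EPG5, a tether for fusion with lysosomes, ZFYVE1, a marker of the membrane where autophagosomes start, and ATG13, a subunit of the ULK1 complex, rose by 0.85 ± 0.034, 1.12 ± 0.057 and 0.57 ± 0.034 (adjusted p = 3.28e-23, 4.57e-20 and 1.08e-17). ATG2A, a lipid transfer protein, PIK3R4, a subunit of the phosphatidylinositol 3-kinase complex, and ATG4C, a protease that processes ATG8 proteins, were lower, at -0.55 ± 0.051, -0.22 ± 0.039 and -0.31 ± 0.073 (adjusted p = 3.35e-12, 7.17e-06 and 0.000292). Of 9 further cargo receptors tested, 7 were higher and 2 lower (same shares of all genes). CCPG1, a receptor for the endoplasmic reticulum, led with 1.25 ± 0.067, 1.83 ± 0.070 and 1.25 ± 0.067 in SNT-8, SNK-10 and SNT-16, and these differed between lines (adjusted p = 2.16e-05). OPTN and CALCOCO2, receptors for mitochondria and bacteria, rose by 0.70 ± 0.034 and 0.51 ± 0.032 on the mean (adjusted p = 2.45e-20 and 2.33e-17). SEC62, a receptor for the endoplasmic reticulum, and NCOA4, the ferritin receptor, were lower at -0.20 ± 0.034 and -0.08 ± 0.026 (adjusted p = 2.52e-06 and 0.0103).

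Of 26 tested genes that control mTORC1, the Rag GTPases and the MiT/TFE factors, 13 were higher and 6 lower on the mean; 31.7% of all genes were higher and 30% lower, so the share lower was below the background. SESN2, an inhibitor of mTORC1 signalling that senses leucine, changed by 1.92 ± 0.058, 1.37 ± 0.057 and 1.81 ± 0.056, which differed between lines (adjusted p = 6.74e-06). FNIP1 and FLCN, which form a complex that acts on the Rag GTPases and is needed for TFEB and TFE3 phosphorylation, rose by 1.06 ± 0.042 and 0.84 ± 0.044 (adjusted p = 1.8e-23 and 1.17e-19). AKT1S1, an mTORC1 subunit, LAMTOR4, part of the lysosomal Rag anchor, and RRAGA, a Rag GTPase, were lower, at -0.46 ± 0.054, -0.44 ± 0.058 and -0.43 ± 0.058 (adjusted p = 1.16e-09, 1.35e-08 and 7.27e-08).

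**Figure D5:**
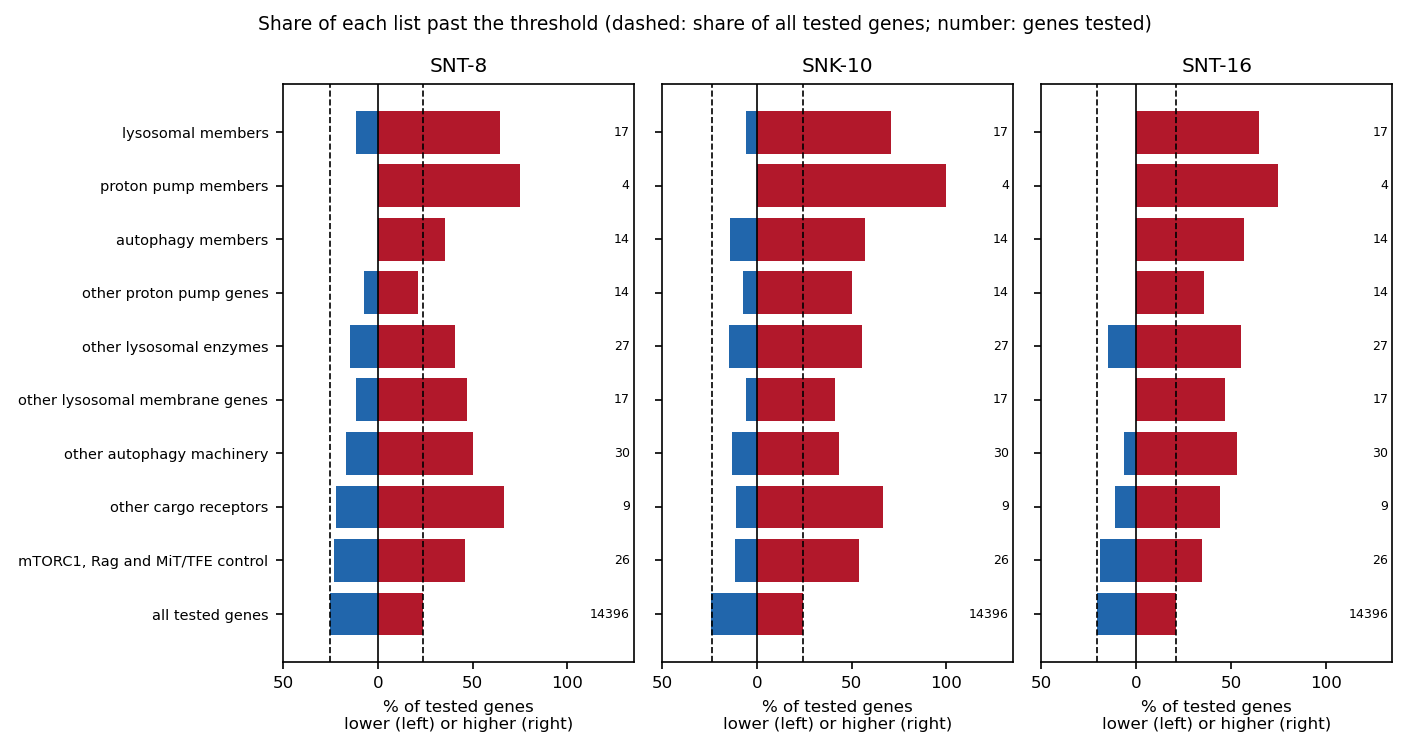
Share of the tested genes of each list that passed the threshold as higher (right) or lower (left), in percent, by line; dashed lines give the shares of all 14396 tested genes and the numbers at the right the genes tested. The bars of the lysosomal members reach furthest right among the lists of more than 9 genes in each line, and other proton pump genes in SNT-8 do not pass the dashed line.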

How the data were processed

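RNA of 18 libraries was analysed from the deposited gene tables. Per the file headers, the authors gave for each gene an expected count and an FPKM value, a fragment count scaled to transcript length and library size. The expected counts were estimates, 60.3% to 61.6% of them whole within 0.005. Per the submitters' processing notes, Bowtie2 and HISAT were used. For the versions and the genome build, nothing is given in the sources used here. Symbols came from a RefSeq table of GRCh38.p14, which named 21559 of 21662 IDs by ID and 7 by transcript.

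The expected counts were rounded, filtered with filterByExpr (minimum count 10, minimum total 15), scaled by TMM (factors 0.931 to 1.052) and fitted with edgeR 4.0.16 in R 4.3.3 by its robust quasi-likelihood test. The fit had a mean for each of the 6 groups, 12 residual degrees of freedom and a common biological coefficient of variation of 4.4%. The SE follows from the F statistic of each contrast, as the size of its log2 fold change over the root of F, and Benjamini-Hochberg adjustment ran over the 14396 genes tested. CPM were scaled by TMM. FPKM served for levels between genes. The test was checked on simulated data. Alternatives used DESeq2 1.42.0 (also its size factors in edgeR), limma 3.58.1 on log2(FPKM + 1) and log2(FPKM + 0.1), no low-count filter, each line alone, no mitochondrial ribosomal RNA, a replicate block, and 17 libraries in place of 18.

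The members and the lists were chosen with earlier results of these data known. Values of each library are given, within each role, for the 2 members with the smallest p for the mean response, for the 5 with the smallest p for the difference between lines, for the 3 with the largest DMSO difference between SNK-10 and SNT-8, and for TFEB and TFE3. From each pathway list, up to 3 genes per direction with the smallest p for the mean response are named; a few items are not reported here.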

Additional observations from a re-analysis of the deposited data

Results flagged for a closer look

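The icaritin response differed between the 3 lines, by edgeR's quasi-likelihood test of the 2 differences together, for 11 members and 7 of the named pathway genes. Of all tested genes, 14.3% were called in this way. The pathway genes were named for a small p of the mean response, so their count does not describe the pathways. Among lysosomal members the adjusted p was 0.00925 for CTSB, 0.0119 for CTSD, 0.0204 for CTSZ and 0.0127 for PSAP. It was 0.0327 for the pump gene ATP6AP1 and 0.00929 for TFE3. Among autophagy members it was 0.0138 for ATG14, 0.000413 for WIPI1, 0.00221 for ATG7, 0.0303 for GABARAPL1 and 0.0121 for SQSTM1. CTSB, CTSD, CTSZ, PSAP, ATP6AP1, TFE3, ATG14, GABARAPL1 and SQSTM1 had their highest log2 fold change in SNK-10, whereas WIPI1 and ATG7 had their lowest there.

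Among the pathway genes the adjusted p was 8.58e-08 for FUCA1, 5.27e-05 for CTSC, 0.000137 for CTSS, 0.00284 for EPG5, 2.16e-05 for CCPG1, 0.000396 for CALCOCO2 and 6.74e-06 for SESN2. CTSC changed by -0.57 ± 0.047, -0.15 ± 0.047 and -0.38 ± 0.047, and CTSS by -0.46 ± 0.060, 0.06 ± 0.065 and -0.33 ± 0.059 in SNT-8, SNK-10 and SNT-16. EPG5 changed by 0.90 ± 0.060, 1.02 ± 0.058 and 0.63 ± 0.060, and CALCOCO2 by 0.37 ± 0.054, 0.76 ± 0.056 and 0.40 ± 0.054. The difference of EPG5 between lines was lost with limma on log2(FPKM + 0.1) (adjusted p = 0.0675).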

How the results depend on the processing

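No result past the threshold changed sign in any alternative. The calls of 16 of 22 members in SNT-8, 22 of 29 in SNK-10, 20 of 23 in SNT-16 and 26 of 27 on the mean response were kept under all alternatives. For the difference between lines, 4 of 11 were kept, and 7 members passed with limma on log2(FPKM + 1). Leaving out 1 library gave 16 to 19 members higher in SNT-8, 22 to 25 in SNK-10, 20 to 24 in SNT-16 and 26 to 27 on the mean, 8 to 15 for the difference between lines, and 3 to 6 for the DMSO difference of SNT-16 and SNT-8. Members lower numbered 1 to 3 in SNT-8 and in SNK-10, 0 in SNT-16 and 1 to 2 on the mean. DESeq2 gave 15 members higher and 1 lower in SNT-8 and 1 lower in SNK-10. The members' calls lost with DESeq2 were those of ATP6V1A, ATP6V1H, CTSA, GRN, NPC2 and TFEB in SNT-8, ATG9A, GABARAPL2, LIPA and TFEB in SNK-10, ATP6V1H and GRN in SNT-16, and GABARAPL1 for the difference between lines. With limma on log2(FPKM + 1), calls of members were lost for CTSA in SNT-8, ATG9A and ATP6V1H in SNK-10 and GAA on the mean, SNT-8 gained ATG9A, ATG12, ATG16L1 and SQSTM1, SNT-16 gained ATG9A, and the difference between lines gained ATG12 and GABARAPL2 and lost ATG14, ATP6AP1, CTSD, GABARAPL1, SQSTM1 and TFE3.

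Replicate numbers are shared by the groups, but same-numbered libraries did not deviate together (correlations from -0.129 to 0.042 over 9332 genes). Libraries of different numbers gave correlations from -0.125 to 0.147. The labels do not say what a number shares, and these correlations cannot show whether libraries of a number shared a culture or a run. With a replicate block, 18 members were higher in SNT-8, 26 in SNK-10, 22 in SNT-16 and 26 on the mean, with 2, 3, 0 and 1 lower, and 9 differed between lines; NEU1 was then lower in SNT-8 (adjusted p = 0.0373). Counting error weighs most on members of few CPM, such as TFEB and, in SNK-10, GABARAPL1 and GAA.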

Other observations

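The 18 tested genes of the proton pump, members included, were also grouped by sector, a grouping chosen after the values were seen and given as a description. Of the V1 sector, the cytosolic part that hydrolyses ATP, 8 genes were tested, and on the mean response 8 were higher and 0 lower by edgeR, with a median log2 fold change of 0.26. On the mean, 31.7% of all tested genes were higher and 30% lower. The V1 genes higher in a single line numbered 4 in SNT-8, 8 in SNK-10 and 5 in SNT-16, against 24%, 24.4% and 21.2% of all genes. Of the V0 sector, the membrane part that carries protons, 8 genes were tested, and on the mean 4 were higher (ATP6V0B, ATP6V0D1, ATP6V0D2 and TCIRG1) and 1, ATP6V0A1, was lower, with a median of 0.08. ATP6V0D2 was barely expressed, at 0.09 to 0.73 FPKM over all libraries. In single lines, V0 genes higher numbered 1, 1 and 2 in SNT-8, SNK-10 and SNT-16. Their share higher was thus below that of all genes in SNT-8 and SNK-10. The difference between the sectors was not tested.

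Among genes that control mTORC1, 2 others chosen after their values were seen rose by large amounts. SESN1, a relative of SESN2, rose in each line by edgeR, by 1.93 ± 0.071 on the mean (adjusted p = 9.11e-14). In SNT-8, SNK-10 and SNT-16, RRAGC, a Rag GTPase, rose by 0.90 ± 0.085, 0.97 ± 0.086 and 0.98 ± 0.086 (adjusted p = 1.7e-11, 4.59e-12 and 3.49e-12), while RRAGA was lower on the mean. LAPTM5, a lysosomal membrane protein of blood cells, rose by 1.19 ± 0.20, 0.50 ± 0.053 and 1.11 ± 0.21, and its responses differed between lines (adjusted p = 0.0107). In both SNT lines the LAPTM5 changes rested on low levels, with 0.67 to 1.07 FPKM in the DMSO libraries and 1.77 to 2.18 in the icaritin libraries. SNK-10 had 68.65 to 75.76 FPKM with DMSO and 96.69 to 103.54 with icaritin.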
